A study of Mus musculus with 6 samples.

Results

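The constitutive proteasome genes were taken as the genes whose symbol begins with Psma, Psmb, Psmc, Psmd, Psme, Psmf or Psmg followed by a digit, leaving out Psmb8, Psmb9 and Psmb10. There were 47 of them among the 41386 genes of the deposited table, and all 47 held at least 10 reads over the 6 libraries, so that each was among the 22996 genes tested. Gene expression was measured by RNA-seq in the hippocampus of C57BL/6 mice after focal cerebral ischemia. In the I/R group the left middle cerebral artery was blocked with a filament for 1.5 h and reperfused for 24 h, and in the sham group the same surgery was done without the filament. Each group had 3 libraries from mice 56 days old, and for each library 3 hippocampi of the occluded side were pooled. The spread between libraries is therefore a spread between pools. Occlusion of this artery lesions mainly the striatum and cortex, and how far the hippocampus was injured can vary between animals.

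The 26S proteasome is the protease that degrades proteins marked with ubiquitin chains. Its 20S core is a barrel of stacked rings in which the outer alpha rings guard the entrance and the inner beta rings carry the catalytic sites of Psmb6, Psmb7 and Psmb5. The 19S particle caps the core: its base holds a ring of ATPases that unfold the substrate, and its lid removes the ubiquitin chain. In neurons the proteasome takes part in the turnover of synaptic proteins, and its subunits are made in all cell types. Cells under stress can raise the subunit genes together through the transcription factor Nfe2l1, while interferon gamma exchanges the catalytic subunits for Psmb9, Psmb10 and Psmb8, which form the immunoproteasome.

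The proteasome genes as a group were higher after I/R. By edgeR's quasi-likelihood test, at an adjusted p below 0.05 with more than a 1.2-fold difference, 33 of the 47 were higher in I/R, 0 were lower and 14 were not called. Among all genes tested 17.2% were called higher and 16.3% lower, and among the 10644 genes with a mean of at least 10 CPM (counts scaled to the size of their library) 21.1% were higher and 29.7% lower. Of the proteasome genes, 43 were in that range of expression. The median log2 fold change of the 47 was 0.51, beside 0.07 over all genes tested and -0.09 over the genes with at least 10 CPM. The groups' values did not overlap for 39 of the 47, and for 50.4% of all genes. In whole tissue, a change in the share of cells of a type and a change in the RNA of a gene per cell cannot be told apart.

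**Figure D1:**
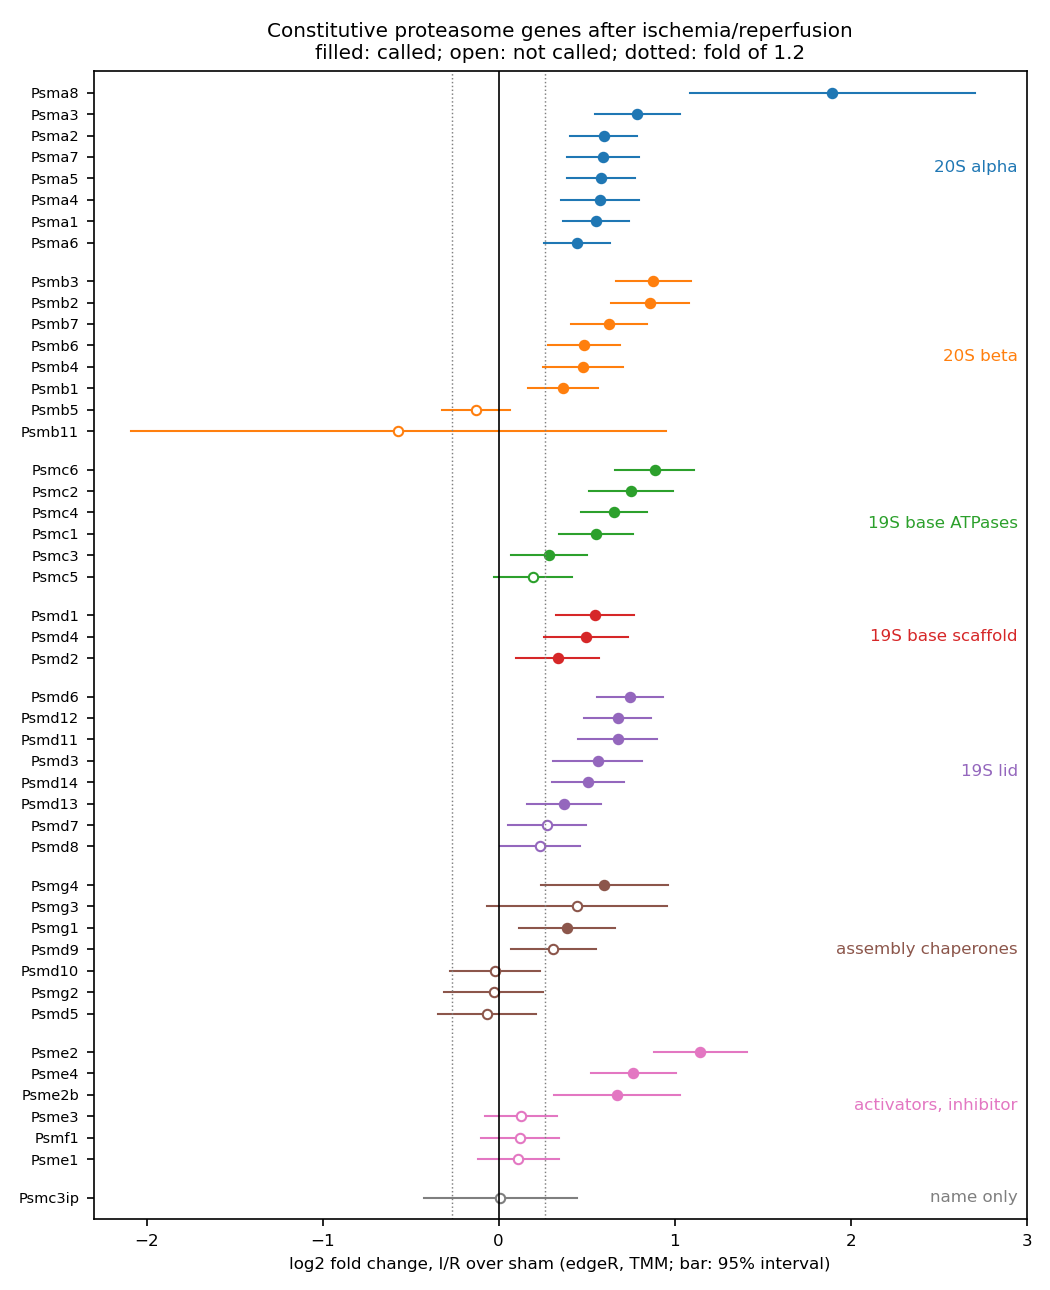
Log2 fold change of each of the 47 proteasome genes, I/R over sham, from edgeR with TMM scaling; bars are 95% intervals, filled points are called genes, and dotted lines mark a fold of 1.2. The 33 filled points all lie to the right of 0, and the open points include Psmb5, most assembly chaperones and 3 of the activators and inhibitor.

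The 6 libraries held 37493042 to 44788547 counted reads. The proteasome genes took 0.647%, 0.576% and 0.567% of the counts in I/R 1, 2 and 3 and 0.349%, 0.362% and 0.343% in sham 1, 2 and 3. The TMM scaling factors (trimmed mean of M-values) were 1.07 to 1.17 in I/R and 0.899 to 0.915 in sham, so scaled levels differ less between the groups than raw shares. Without these factors the median over all genes was 0.35 and that of the proteasome genes 0.79, and 41 were called higher and 0 lower. Cell type markers moved with the groups as well, beside 17.2% of all genes called higher and 16.3% lower. The summed level of 5 neuronal markers was 1533 to 3416 CPM in I/R, lowest in I/R 1, and 6327 to 6679 CPM in sham, with all 5 lower. All 4 dentate granule cell markers (90.9 to 167 against 321 to 353 CPM) and all 4 of CA1 and CA3 pyramidal cells (175 to 326 against 654 to 719 CPM) were lower too. Sums were higher in I/R for 3 endothelial markers (231 to 369.5 against 145 to 147 CPM, 3 of 3 called), 6 of monocytes and macrophages (98.7 to 189 against 12.3 to 14.7 CPM, 4 called) and 5 of neutrophils (9.47 to 39.1 against 4.13 to 5.64 CPM, 4 called, with Cxcr2 at 0 in sham). The sum of 5 oligodendrocyte markers was 4501 to 4951 CPM in I/R and 5743 to 7111 CPM in sham, with 2 of 5 lower. The ranges overlapped for 4 astrocyte markers (3690 to 3918 against 3511 to 3799 CPM, 2 higher and 1 lower) and 5 microglial markers (159 to 211 against 168 to 197 CPM, 1 higher and 2 lower). These sums hide opposite changes. Gfap had a mean of 406 CPM in sham and 1980 CPM in I/R, and Slc1a2 had 3104 and 1576 CPM. Aif1 was called higher at 0.74, and P2ry12 and Tmem119 lower at -1.69 and -0.70. The choroid plexus list (7 genes, 0 called) split libraries within groups: Ttr, which encodes transthyretin, had 9.91, 2510 and 4116 CPM in sham 1, 2 and 3 and 1481, 3454 and 20.2 CPM in I/R 1, 2 and 3. The part of these shifts in the proteasome values was not tested. Leaving out I/R 3 and sham 1, the pair low in Ttr, the median of the proteasome genes was 0.53, with 23 higher and 0 lower.

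Over the 31 subunits that build the ubiquitous core and its cap, without the germ cell and thymus subunits Psma8 and Psmb11, the median was close between the libraries of a group. The median log2 ratio to the sham mean was 0.55, 0.56 and 0.54 in I/R 1, 2 and 3 and -0.03, 0.07 and -0.04 in sham 1, 2 and 3. By role, I/R 1 was above the other I/R libraries in the median of the base scaffold (0.66, beside 0.45 and 0.36 in I/R 2 and 3), the lid (0.63, beside 0.47 in both) and the activators and inhibitor (0.51, beside 0.38 and 0.35), but not in that of the alpha ring (0.55, beside 0.58 and 0.65). Of the 31, 27 were called higher and 0 lower, beside 17.2% and 16.3% of all genes tested. Psmc5, Psmd7, Psmd8 and Psmb5 were not called. The highest of the 3 I/R libraries was I/R 1 for 15 subunits, I/R 2 for 6 and I/R 3 for 10.

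**Figure D2:**
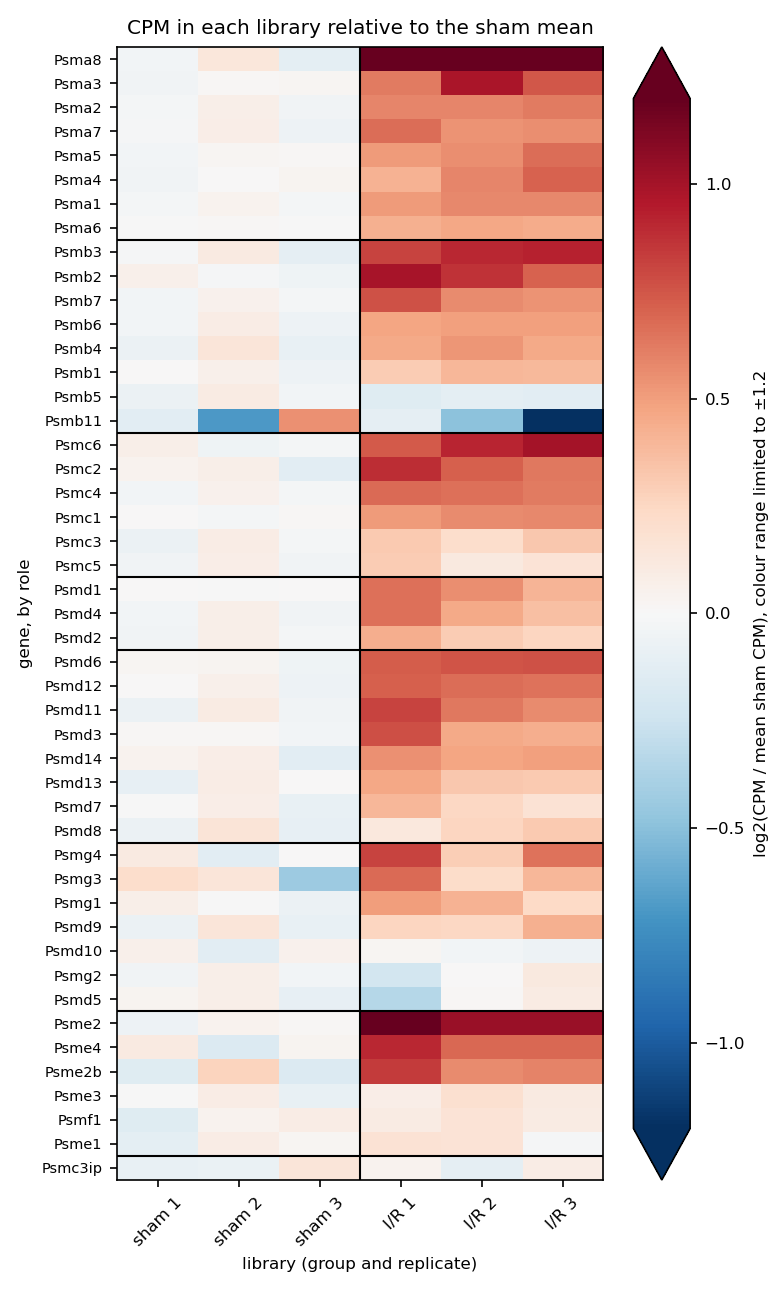
Level of the 47 proteasome genes (rows, grouped by role) in the 6 libraries (columns) as log2 of CPM over the mean sham CPM, with colours limited to ±1.2. The I/R columns are red in most rows of the core and cap, while the rows of Psmb5, Psmd5, Psmd10, Psmg2 and Psmc3ip are pale or mixed and the low count of Psmb11 scatters in both groups.

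Of the alpha ring, the 7 ubiquitous subunits were all called higher, beside 17.2% of all genes tested. The log2 fold changes of these 7 lay within a narrow range of 0.45 to 0.79. These subunits form the gated entrance of the core. Psma3 had the highest value of them at 0.79, followed by Psma2 at 0.60, Psma7 at 0.59, Psma5 at 0.58, Psma4 at 0.58 and Psma1 at 0.55. Psma6 had the lowest, with 122, 123 and 122 CPM in sham 1, 2 and 3 and 164, 169 and 167 CPM in I/R 1, 2 and 3. The sham libraries of Psma6 were nearly equal, and every I/R library lay above them. It measured 122 ± 0.802 CPM in sham against 167 ± 2.52 CPM after I/R (SD, n = 3 each), a log2 fold change at 0.45, SE 0.08 (edgeR adjusted p = 0.00376); the exact permutation p was 0.1, the smallest that 3 libraries against 3 allow. Psma8 encodes the alpha subunit of the testis proteasome, which takes the place of Psma7 in germ cells. Its counts were 12, 14 and 10 in sham, against 60, 43 and 48 after I/R, or 0.317 ± 0.0284 CPM in sham against 1.19 ± 0.113 CPM after I/R (SD, n = 3 each). The groups did not overlap and it was called, at 1.90, SE 0.36 (edgeR adjusted p = 0.00381), but its level stayed near 1 CPM and it was the 1 member of the ring outside the narrow range. Parts of 3 alpha subunits are shared with other genes: of the 50-base stretches of its transcripts, Psma5 had 49.1% in another gene, Psma3 15.4% and Psma4 11.6%, so their counts are uncertain.

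Of the beta ring, 6 of 8 members were called higher, beside 17.2% of all genes tested. The log2 fold changes of the 7 ubiquitous subunits ran from -0.13 to 0.88. Among the subunits without a catalytic site, Psmb3 had the highest value. It had 82.6, 90.1 and 77.6 CPM in sham 1, 2 and 3 and 146, 156 and 158 CPM in I/R 1, 2 and 3. Every I/R library lay far above every sham library, at 83.4 ± 6.29 CPM in sham against 154 ± 6.16 CPM after I/R (SD, n = 3 each). Its log2 fold change was 0.88, SE 0.09 (edgeR adjusted p = 0.000354), although 17.8% of its 50-base stretches lie in another gene as well. The other subunits of this kind rose by 0.86 (Psmb2), 0.48 (Psmb4) and 0.36 (Psmb1) on the log2 scale. Psmb1 was not called without sham 1 or without sham 3, with an edgeR adjusted p of up to 0.073. Calls over all genes fell as well, from 7688 to 5467 without sham 1 and 5364 without sham 3. Psmb11, the beta subunit of the thymus proteasome, was near absent, with counts of 10, 7 and 14 in sham, against 12, 8 and 4 after I/R. The groups overlapped, at 0.2803 ± 0.119 CPM in sham against 0.186 ± 0.0807 CPM after I/R (SD, n = 3 each), and its log2 fold change was -0.57, SE 0.67 (edgeR adjusted p = 0.559), not called.

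Of the 3 catalytic subunits, Psmb6 and Psmb7 were called higher and Psmb5 was not called. Psmb6 (chromosome 11, 68686731 to 68689221 on the BALB/cJ assembly that the table uses) carries the caspase-like site and had 118, 129 and 116 CPM in sham 1, 2 and 3 and 168, 170 and 169.6 CPM in I/R 1, 2 and 3. The I/R libraries were nearly equal to each other and all above sham, at 121 ± 7.09 CPM in sham against 169 ± 1.25 CPM after I/R (SD, n = 3 each) and a log2 fold change at 0.49, SE 0.09 (edgeR adjusted p = 0.00343). Psmb7 (chromosome 2, 35865025 to 35920604) carries the trypsin-like site. It had 92.5, 98.3 and 93.03 CPM in sham 1, 2 and 3 and 161, 140.3 and 138 CPM in I/R 1, 2 and 3. Again the groups did not overlap, with I/R 1 the highest, at 94.6 ± 3.22 CPM in sham against 146 ± 12.7 CPM after I/R (SD, n = 3 each) and a log2 fold change at 0.63, SE 0.10 (edgeR adjusted p = 0.00146). Psmb7 overlaps Nek6 on the other strand, as Psmc3 does Slc39a13, Psmd13 does Sirt3 and Psmc3ip does Mlx. Whether counting used the strand is not given in the sources used here.

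Psmb5 (chromosome 14, 47601270 to 47605207) carries the chymotrypsin-like site, the one that proteasome inhibitors used in the clinic bind first. It had 94.3, 106 and 96.95 CPM in sham 1, 2 and 3 and 89.5, 91.2 and 90.5 CPM in I/R 1, 2 and 3. Each I/R library lay just below each sham library, at 98.96 ± 5.95 CPM in sham against 90.4 ± 0.844 CPM after I/R (SD, n = 3 each), but the log2 fold change, -0.13, SE 0.09 (edgeR adjusted p = 0.277), was not called, and its 95% interval was -0.32 to 0.06. With library size only, the log2 fold change of Psmb5 was 0.15 and the median of the 47 genes 0.79, so its own direction depended on the scaling. The ratio of Psmb5 to Psmb6 reads within a library does not depend on scaling. It was 0.7999, 0.8199 and 0.839 in the sham libraries and 0.534, 0.536 and 0.533 in those after I/R. The I/R ratios were nearly equal and lay far below the sham ratios. Against the geometric mean of the 6 other ubiquitous beta subunits, Psmb5 had 0.935, 0.984 and 0.996 in the sham libraries and 0.567, 0.58 and 0.593 in those after I/R, a fold of 0.597 in I/R relative to sham. These were among 9 read ratios compared, and the exact two-sided permutation p was 0.1 for both, the smallest possible, and 0.129 after Benjamini-Hochberg adjustment over the 9. Psmb5 was the 1 ubiquitous beta subunit not called higher in these same values. Both ratios follow from that, so their p-values are no separate evidence. Psmb5 shares more sequence with other genes than any other ubiquitous subunit: 54.1% of its 50-base stretches lie elsewhere, 46.8% in the processed copy Gm3375, which is named on 0 rows of the table. How reads of such stretches were assigned is not given in the sources used here, so the Psmb5 count is uncertain, and the part of this in its ratios was not tested.

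**Figure D3:**
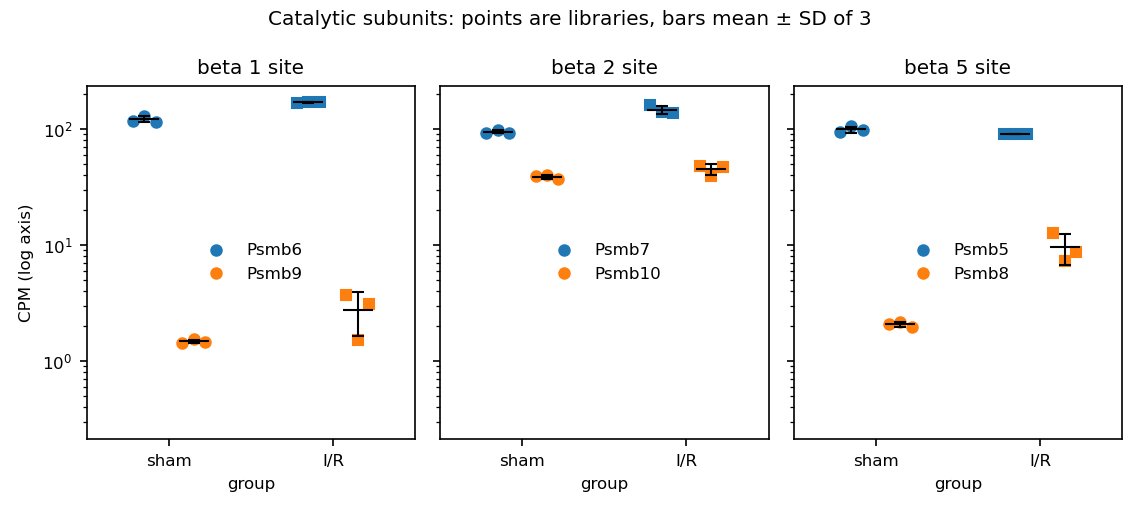
CPM (log axis) of the constitutive catalytic subunits (blue) and of the interferon-induced subunits that replace them (orange) at the 3 catalytic sites; points are libraries (circles sham, squares I/R) and bars the mean ± SD of 3. Psmb8 lies at 7.33 to 12.8 CPM in I/R and 1.96 to 2.19 CPM in sham, while Psmb5 lies at 89.5 to 91.2 CPM in I/R and 94.3 to 106 CPM in sham.

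The immunoproteasome subunits were set beside the constitutive ones they replace. Psmb8, the counterpart of Psmb5, had 2.09, 2.19 and 1.96 CPM in sham 1, 2 and 3 and 12.8, 7.33 and 8.64 CPM in I/R 1, 2 and 3. It rose on the log2 scale by 2.21, SE 0.24 (edgeR adjusted p = 0.000385), and every sham library lay below every I/R library. Relative to Psmb5 reads, Psmb8 was at 0.0221, 0.0207 and 0.0202 in the sham libraries and 0.143, 0.0803 and 0.0955 in those after I/R, a 4.91-fold higher ratio in I/R (exact permutation p of 0.1, 0.129 adjusted over the 9 ratios). Psmb9, the counterpart of Psmb6, had a log2 fold change at 0.91, SE 0.34 (edgeR adjusted p = 0.06703) and Psmb10, the counterpart of Psmb7, one of 0.21, SE 0.10 (edgeR adjusted p = 0.155), and neither was called. The Psmb9 to Psmb6 ratio overlapped between the groups, at 0.0122, 0.01196 and 0.0127 in the sham libraries and 0.0223, 0.00894 and 0.0182 in those after I/R (exact permutation p of 0.4). The Psmb10 to Psmb7 ratio was lower in every I/R library, at 0.426, 0.404 and 0.395 in the sham libraries and 0.299, 0.281 and 0.3395 in those after I/R (exact permutation p of 0.1, 0.129 adjusted), so the ratios of the 3 pairs differed in direction. Of 9 further genes of the interferon gamma response, 8 were called higher, as were 17.2% of all genes tested. The 9 ran from Gbp2 at 3.43 down to Ciita, a regulator of antigen presentation, at 0.20 (not called).

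Of the 6 ATPases of the base, 5 were called higher, beside 17.2% of all genes tested. Psmc6 had the highest value, with 87.5, 80.5 and 81.8 CPM in sham 1, 2 and 3 and 139, 157 and 166 CPM in I/R 1, 2 and 3. All I/R libraries lay well above sham, at 83.3 ± 3.69 CPM in sham against 154 ± 13.9 CPM after I/R (SD, n = 3 each) and a log2 fold change at 0.89, SE 0.10 (edgeR adjusted p = 0.000417). Psmc2, Psmc4 and Psmc1 followed at 0.75, 0.66 and 0.55. Psmc3 had 0.29, an edgeR adjusted p of 0.04599 close to the threshold, and lost its call in 5 of the 6 fits that left out 1 library, all except that without I/R 1, with an adjusted p of up to 0.168. Psmc5 was the lowest, with 173, 188 and 173 CPM in sham 1, 2 and 3 and 219.6, 193 and 199.5 CPM in I/R 1, 2 and 3. Its groups did not overlap, at 178 ± 9.05 CPM in sham against 204 ± 13.8 CPM after I/R (SD, n = 3 each), but I/R 2 lay close to sham 2 and the log2 fold change, 0.20, SE 0.10 (edgeR adjusted p = 0.159), was not called. Psmc6 and Psmc5 sit in the same ring of the assembled particle, and their 95% intervals, 0.66 to 1.11 and -0.03 to 0.42, did not overlap; the difference itself was not tested.

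The base also holds the large scaffold subunits Psmd1 and Psmd2 and the ubiquitin receptor Psmd4. All 3 were called higher, beside 17.2% of all genes tested. Psmd1, with 135, 135 and 136 CPM in sham 1, 2 and 3 and 214, 199 and 179.6 CPM in I/R 1, 2 and 3, was the highest. Its sham libraries were almost equal and every I/R library lay above them, at 135 ± 0.287 CPM in sham against 198 ± 17.4 CPM after I/R (SD, n = 3 each) and a log2 fold change at 0.55, SE 0.10 (edgeR adjusted p = 0.00307). Psmd4 rose by 0.50. Psmd2, which docks ubiquitin-like proteins, had 278, 301 and 282 CPM in sham 1, 2 and 3 and 387, 355 and 343 CPM in I/R 1, 2 and 3. The groups did not overlap, at 287 ± 12.4 CPM in sham against 362 ± 22.6 CPM after I/R (SD, n = 3 each), but the log2 fold change, 0.33, SE 0.11 (edgeR adjusted p = 0.0368), was not called without I/R 2, I/R 3, sham 1, sham 2 or sham 3, with an adjusted p of up to 0.138. Of its 50-base stretches 17.8% lie in another gene, and for Psmc1 of the ATPases the share was 14.1%.

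Of the 8 lid subunits 6 were called higher, beside 17.2% of all genes tested. Psmd6 had the highest value, with 88.8, 89.7 and 84.4 CPM in sham 1, 2 and 3 and 145, 147 and 149 CPM in I/R 1, 2 and 3. The I/R libraries were nearly equal and all above sham, at 87.6 ± 2.83 CPM in sham against 147 ± 1.898 CPM after I/R (SD, n = 3 each) and a log2 fold change at 0.75, SE 0.08 (edgeR adjusted p = 0.000416). Psmd12 and Psmd11 followed at 0.68 and 0.68. The scaffold subunit Psmd3 rose by 0.56, Psmd14, the deubiquitinase that cuts the chain from the substrate, by 0.51, and Psmd13 by 0.37. Psmd13 was not called without sham 1 or sham 3 (edgeR adjusted p of up to 0.0711). Psmd7, the partner of Psmd14, was at 0.27 (edgeR adjusted p of 0.05998) and not called. Psmd8 was the lowest, with 83.4, 97.5 and 82.1 CPM in sham 1, 2 and 3 and 95.9, 105 and 109 CPM in I/R 1, 2 and 3. I/R 1 lay below sham 2, so the groups overlapped, at 87.7 ± 8.53 CPM in sham against 103 ± 6.62 CPM after I/R (SD, n = 3 each), and the log2 fold change, 0.23, SE 0.10 (edgeR adjusted p = 0.107), was not called. It was called without I/R 1.

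The activators bind the ends of the core in place of the 19S particle. Psme1 and Psme2 form the mixed ring PA28, which is induced by interferon gamma, and their genes lie close together (chromosome 14, 48570921 to 48574327 for Psme1 and 48581246 to 48584917 for Psme2). Psme1 had 35.4, 41.05 and 39 CPM in sham 1, 2 and 3 and 43.4, 43.2 and 38.2 CPM in I/R 1, 2 and 3. The groups overlapped, at 38.5 ± 2.84 CPM in sham against 41.6 ± 2.96 CPM after I/R (SD, n = 3 each), and the log2 fold change, 0.11, SE 0.10 (edgeR adjusted p = 0.431), was not called. Psme2 had 15.9, 17.1 and 16.8 CPM in sham 1, 2 and 3 and 42.2, 34.1 and 34.1 CPM in I/R 1, 2 and 3. Each I/R library lay far above each sham library, and Psme2 had the largest log2 fold change of the proteasome genes above 10 CPM, 1.15, SE 0.12 (edgeR adjusted p = 0.000298), at 16.6 ± 0.624 CPM in sham against 36.8 ± 4.68 CPM after I/R (SD, n = 3 each). The ratio of Psme2 to Psme1 reads was 0.4499, 0.418 and 0.431 in the sham libraries and 0.972, 0.7896 and 0.892 in those after I/R, 2.04-fold higher in I/R (exact permutation p of 0.1, 0.129 adjusted over the 9 ratios). Psme2b is a copy of Psme2 that shares 69.3% of its stretches with another gene, mainly Psme2, and Psme2 shares 28.3% of its own with Psme2b. Psme2b rose by 0.67 but was not called without sham 1 or sham 3 (edgeR adjusted p of up to 0.0516), and reads of the pair cannot be fully told apart.

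Psme3 forms a ring of its own in the nucleus and had 129.7, 138 and 122 CPM in sham 1, 2 and 3 and 138, 148 and 139.6 CPM in I/R 1, 2 and 3. I/R 1 lay just below sham 2, so that the groups overlapped, at 129.9 ± 7.87 CPM in sham against 142 ± 5.81 CPM after I/R (SD, n = 3 each), and the log2 fold change, 0.13, SE 0.09 (edgeR adjusted p = 0.325), was not called. Psme4, the single-chain nuclear activator PA200, had 64.2, 53.2 and 61.03 CPM in sham 1, 2 and 3 and 111, 96.1 and 96.2 CPM in I/R 1, 2 and 3. Every sham library lay below every I/R library, at 59.5 ± 5.697 CPM in sham against 101 ± 8.63 CPM after I/R (SD, n = 3 each) and a log2 fold change at 0.77, SE 0.11 (edgeR adjusted p = 0.000985). The ratio of Psme3 to Psme4 reads was 2.02, 2.59 and 2.001 in the sham libraries and 1.24, 1.54 and 1.45 in those after I/R, lower in every I/R library (exact permutation p of 0.1, 0.129 adjusted). Psmf1 encodes the inhibitor PI31, which binds the free core. It had 32.03, 36.5 and 37.8 CPM in sham 1, 2 and 3 and 37.97, 39.8 and 38.02 CPM in I/R 1, 2 and 3. The lowest I/R library lay just above the highest sham library, at 35.4 ± 3.004 CPM in sham against 38.6 ± 1.03 CPM after I/R (SD, n = 3 each), and the log2 fold change, 0.12, SE 0.10 (edgeR adjusted p = 0.374), was not called.

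The assembly chaperones help to build the particle and leave it when it is complete. Of the 7, 2 were called higher, beside 17.2% of all genes tested. The median log2 fold change of the 7 was 0.31 and that of the 31 subunits 0.55. The difference was not tested. Psmg1 and Psmg2 form a pair that assembles the alpha ring, as do Psmg3 and Psmg4. Psmg4 had the highest value, with 10.7, 9.07 and 9.89 CPM in sham 1, 2 and 3 and 17.3, 12.1 and 15.5 CPM in I/R 1, 2 and 3. The groups did not overlap, although I/R 2 lay nearer to sham than I/R 1, at 9.87 ± 0.796 CPM in sham against 14.97 ± 2.62 CPM after I/R (SD, n = 3 each) and a log2 fold change at 0.60, SE 0.16 (edgeR adjusted p = 0.0182). Psmg1 was called at 0.39, and Psmg3 (0.45) and Psmg2 (-0.03) were not. Without 1 library the calls were lost for Psmg4 (I/R 3, sham 2 or sham 3, edgeR adjusted p of up to 0.0806) and Psmg1 (I/R 2 or any sham library, up to 0.126). Of the chaperones of the base, Psmd9 had 0.31 (edgeR adjusted p of 0.0521, called without I/R 1), Psmd10, also known as gankyrin, -0.02 and Psmd5 -0.07, with the last 2 and Psmg2 above 0 with library size only. Psmd5 had 72.4, 74.4 and 66.1 CPM in sham 1, 2 and 3 and 56.02, 71.4 and 76.03 CPM in I/R 1, 2 and 3. Its I/R libraries spread from below to above the sham libraries, at 70.9 ± 4.35 CPM in sham against 67.8 ± 10.5 CPM after I/R (SD, n = 3 each), and it was not called (SE 0.12, edgeR adjusted p of 0.723). Over 385 bases Psmc3ip overlaps Mlx on the other strand. Mlx held 6601 reads over the 6 libraries and Psmc3ip 906, so the Psmc3ip count is uncertain. Psmc3ip carries the prefix by name but encodes a recombination factor of meiosis. It had 3.55, 3.58 and 4.18 CPM in sham 1, 2 and 3 and 3.89, 3.49 and 4.01 CPM in I/R 1, 2 and 3, overlapping groups at 3.77 ± 0.357 CPM in sham against 3.796 ± 0.272 CPM after I/R (SD, n = 3 each) and a log2 fold change at 0.01, SE 0.19 (edgeR adjusted p = 0.974).

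Levels between genes were compared per length, as the deposited FPKM (counted fragments scaled by gene length and library total). Over the 31 subunits the mean sham FPKM ran from 34.4 ± 1.80 for Psmc6 to 199.5 ± 16.4 for Psmb4 (SD, n = 3 each), a 5.80-fold range, and in I/R from 76.9 ± 3.37 to 337 ± 15.9 for the same 2 genes, a 4.39-fold range. Psmb4 was the highest in both groups. At the low end of I/R, Psmc6 did not differ beyond the spread from Psmd8 at 77.6 ± 1.59 and Psmd12 at 77.8 ± 6 FPKM. The neighbours below Psmb4 in sham, Psmd2 at 177 ± 5.88 and Psmc3 at 169 ± 7.599 FPKM, differed by less than the SD of Psmc3. Of the catalytic subunits in sham, Psmb6 was at 141 ± 6.997, Psmb5 at 103 ± 5.18 and Psmb7 at 43.0 ± 1.05 FPKM. In I/R they were at 239.7 ± 11.1 (Psmb6), 114 ± 5.18 (Psmb5) and 80.9 ± 11.6 FPKM (Psmb7), so that the order was kept and the gap between Psmb5 and Psmb7 was smaller. FPKM uses no TMM factor, which is why Psmb5 is higher in I/R on this scale and lower in scaled CPM. The length that FPKM implies was within 1% of the length listed in the table for 32.6% of 17406 genes with at least 100 reads. With the listed length the lowest of the 31 in sham was Psmd11 at 15.9 FPKM and the highest Psmc1 at 119 FPKM, so the order of genes depends on the length used, while the comparison of a gene between groups does not.

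**Figure D4:**
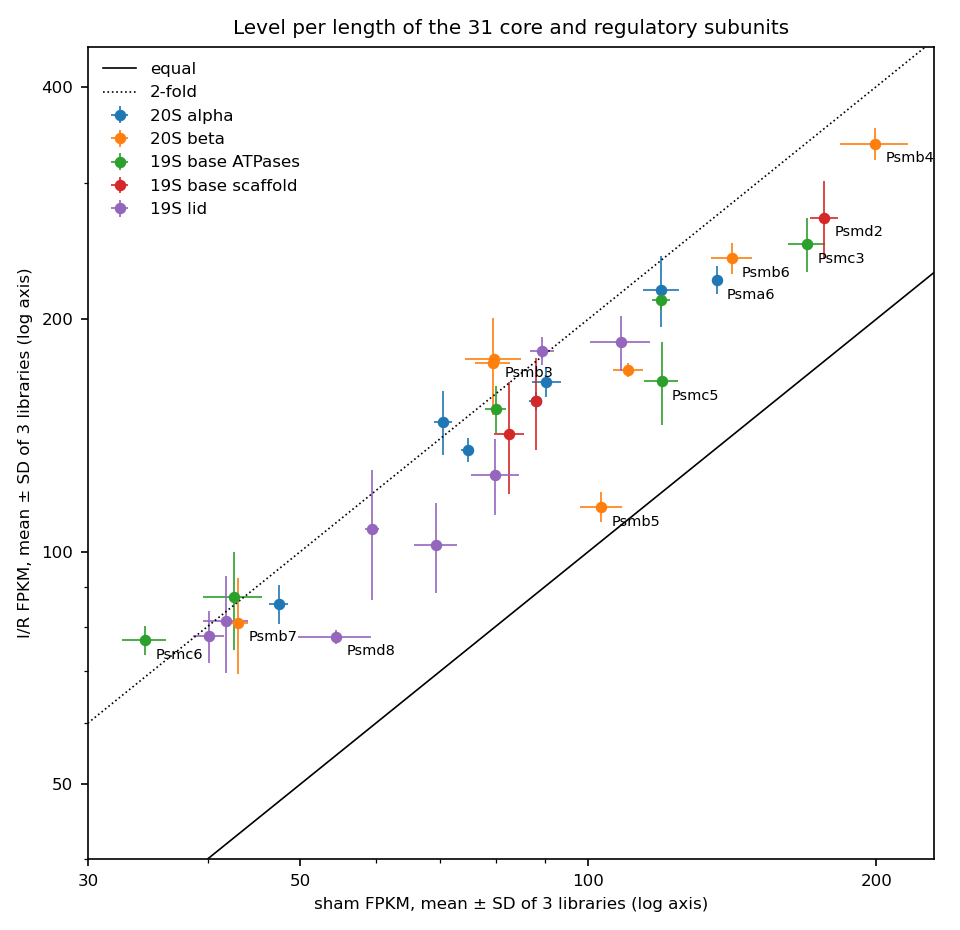
Deposited FPKM of the 31 core and cap subunits in sham (horizontal) and I/R (vertical), mean ± SD of 3 libraries, on log axes; the solid line marks equal levels and the dotted line a 2-fold higher level in I/R. Psmb5 lies nearest the line of equality, at 103 FPKM in sham and 114 FPKM in I/R; without TMM factors all 31 points lie above that line.

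The promoters were examined for letters shared by the proteasome genes. RefSeq windows on GRCm38.p6, from 250 bases before to 50 after the start site, were at hand for 39 of the 47 genes, and patterns were counted on both strands. The patterns given here were chosen from a larger set after their matches had been seen. A gene was counted once if any of its windows held the pattern. CCGGAAG, the core of sites bound by ETS factors, was in 15 of the 39 genes (38.5%) and in 9.93% of all 27025 genes with a window. Its share was 19.8% of the 7894 genes that had both a window and a mean of at least 10 CPM. TGACNNNGC, the core of the antioxidant response element that Nfe2l1 and Nfe2l2 bind with small Maf proteins, was in 6 (15.4%), beside 13.99% of all genes and 16.9% of those with at least 10 CPM. GGGCGG was in 56.4%, beside 38.2% of all genes and 72.2% of those with at least 10 CPM. CCAAT was in 35.9%, beside 41.1% and 42.3%. The core of interferon-stimulated response elements (GAAA, any 2 bases, GAAA) was in 12.8% (Psmd4, Psmb3, Psme1, Psmg4 and Psmd9), beside 3.99% and 3.38%. The interferon core was thus in the window of Psme1 and not in that of Psme2. A match is a run of letters and says nothing on binding. Psmb6, which rose, and Psmb5, which was not called, both carried the antioxidant core on the strand of the gene, and Psmc6, the ATPase with the highest log2 fold change, carried it on the opposite strand, so that its capitals are the reverse complement of the pattern. The windows are shown 5′ to 3′ on the strand of the gene with the match in capitals.
Psmb6 (chr11:70525297-70525356, plus strand): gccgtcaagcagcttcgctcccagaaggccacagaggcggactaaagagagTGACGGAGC
Psmb5 (chr14:54618009-54618068, minus strand): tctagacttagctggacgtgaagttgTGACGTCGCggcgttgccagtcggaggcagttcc
Psmc6 (chr14:45329574-45329633, plus strand): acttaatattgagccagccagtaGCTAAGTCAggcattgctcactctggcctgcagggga

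The ETS core is shown for Psmc6, Psme4 and Psmd6, which had the highest log2 fold changes (0.89, 0.77 and 0.75) among the genes that carry it on their own strand, and for Psme3 (0.13), which was not called. Psmg3 (0.45) and Psmc3ip (0.01) carried the core as well and were not called. Capitals mark the match, which lies 107 to 45 bases before the start site.
Psmc6 (chr14:45329698-45329757, plus strand): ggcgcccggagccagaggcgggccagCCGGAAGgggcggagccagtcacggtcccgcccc
Psme4 (chr11:30771696-30771755, plus strand): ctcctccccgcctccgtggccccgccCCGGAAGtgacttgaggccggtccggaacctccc
Psmd6 (chr14:14120957-14121016, minus strand): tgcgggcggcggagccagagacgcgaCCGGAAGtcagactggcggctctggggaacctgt
Psme3 (chr11:101316080-101316139, plus strand): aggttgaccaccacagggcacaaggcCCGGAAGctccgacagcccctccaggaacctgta

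Other genes of the pathway were called in both directions, as were 17.2% (higher) and 16.3% (lower) of all genes tested. Among 8 tested genes of further subunits, assembly and adaptor factors, 3 were higher and 1 lower. The subunits Shfm1, highest at 0.65, and Adrm1 rose, as did Pomp, the maturation factor that is built into the nascent core and degraded by it, at 0.36, SE 0.09 (edgeR adjusted p = 0.0162) and 85.5, 96.95 and 88.2 CPM in sham 1, 2 and 3 and 115, 109 and 124 CPM in I/R 1, 2 and 3. Fbxo7, which binds Psmf1, fell by 0.50 on the log2 scale (SE 0.10, edgeR adjusted p of 0.00539). Of 12 shuttle receptors, deubiquitinases and associated factors, 3 were higher and 2 lower, from Txnl1, a thioredoxin-like protein of the 19S particle, at 0.64 to Ubqln2, a shuttle for ubiquitinated proteins, at -0.80. Of 4 tested genes for ubiquitin and its activating enzymes 1 was higher, Rps27a at 0.82, which encodes ubiquitin fused to a ribosomal protein. The polyubiquitin gene Ubb had the lowest value of that list, -0.12 (not called).

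Of 10 regulators of proteasome gene expression 5 were higher and 2 lower, beside 17.2% and 16.3% of all genes tested. Nfe2l1, the factor known for raising subunit genes when proteasome activity falls, had 406, 464 and 429 CPM in sham 1, 2 and 3 and 367, 351 and 347 CPM in I/R 1, 2 and 3. All I/R libraries lay below all sham libraries, but the log2 fold change, -0.29, SE 0.11 (edgeR adjusted p = 0.0722), was not called. This is the level of its RNA, and the amount or activity of its protein was not examined. The highest value was that of Maff, which encodes a small Maf protein, at 4.08, SE 0.35 (edgeR adjusted p = 0.000272), with 3.32, 2.19 and 2.49 CPM in sham 1, 2 and 3 and 68.2, 37.8 and 28.9 CPM in I/R 1, 2 and 3. I/R 1 was the highest by far, and all I/R libraries lay above sham. The lowest was Sel1l, a part of the ubiquitin ligase for misfolded proteins of the endoplasmic reticulum, at -0.43, SE 0.09 (edgeR adjusted p = 0.006005). Nfe2l2 was called higher at 1.15, SE 0.17 (edgeR adjusted p = 0.00117), with a mean of 16.1 CPM in sham and 35.8 CPM in I/R. Also called were Mafk at 1.50, Vcp at 0.40, Mafg at 0.36 and Keap1 at -0.41. With library size only, the count of lower genes over all 6 pathway lists was 1 in place of 5, and that of higher genes 29 in place of 21.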

How the data were processed

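Gene expression was measured by RNA-seq in 3 I/R and 3 sham libraries, grouped by the sample titles. The authors aligned reads to an Ensembl genome with TopHat2 and counted them per gene with HTSeq; the submitters' processing notes name Bowtie 0.12.2. The identifiers are those of the Ensembl annotation of BALB/cJ, another strain than the C57BL/6 mice. The deposited table gives raw counts per gene, with 37493042 to 44788547 per library, and FPKM, in which the authors divided counts by a gene length and by the counted reads. Its columns of the authors' own comparison (fold changes and p-values) were not used. The handling of strand and of reads that fit several places is not given in the sources used here. The 4 lines that had been split were rejoined, giving 41386 genes.

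Genes with at least 10 reads over the 6 libraries (22996) were scaled by TMM and compared with edgeR 4.0.16 in R 4.3.3 (glmQLFit with robust estimation, glmQLFTest, no covariates), with Benjamini-Hochberg adjustment over all of them. Calls needed an adjusted p below 0.05 together with more than a 1.2-fold difference. The standard error was the size of the log2 fold change over the square root of F. CPM set a count against the TMM-scaled total of its library. The edgeR p-values set the difference between groups against the spread between pools, which is estimated with information shared across genes. Exact two-sided permutation tests over libraries cannot go below 0.1. Alternatives used DESeq2 1.42.0 and limma 3.58.1, other scalings, filters and call rules, log2 of FPKM plus 1 or 0.1, and fits without each library.

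Shared 50-base stretches were counted in GENCODE M21 transcripts, and promoters were read from RefSeq on GRCm38.p6. Coordinates of genes are those of the table. All members are named by role; values per library are given for the catalytic subunits, the activators and the inhibitor, and the member with the highest and the lowest log2 fold change of each role. Of the pathway lists, the highest and the lowest member are named, with Nfe2l1, Pomp, Psmb8, Psmb9 and Psmb10. The genes Adrm1, the other called regulators, the ones at an overlap and the copies of members were named after their values were seen. So were the single cell type markers other than Ttr. The read ratios were not among the planned comparisons. The members and lists were chosen with earlier results of these data known. Listed genes not matched by symbol, among them Paaf1, Ddi2 and Map2, were not analysed here. Deviations of libraries with the same replicate number were not correlated (r of -0.052, 0.033 and -0.098), and the labels give no shared animal or batch, so the numbers were not taken to pair the libraries.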

Additional observations from a re-analysis of the deposited data

Results flagged for a closer look

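Rows of the table outside the named genes also carried reads annotated as proteasome subunits, and 2 of them were higher in I/R. A row on chromosome 8 (86922373 to 86922987, BALB/cJ assembly) with no gene name, annotated as the beta 3 subunit that Psmb3 encodes, had sham counts of 82, 85 and 65 against 191, 160 and 196 after I/R. Its log2 fold change was 1.083, SE 0.21 (edgeR adjusted p = 0.00404). Gm8394 (chromosome 10, 83543637 to 83544487), annotated as the alpha 5 subunit that Psma5 encodes, had sham counts of 201, 284 and 187 against 495, 393 and 506 after I/R, with a log2 fold change at 0.901, SE 0.18 (edgeR adjusted p = 0.00487). Both are flagged because the signal lies in data outside the main measurement. Of the 50-base stretches of Psma5, 33.6% also lie in Gm8394. Another such row, on chromosome 16 and annotated as the alpha 7 subunit, was lower in I/R at -1.07, SE 0.29 (edgeR adjusted p = 0.0182), with sham counts of 72, 73 and 77 against 49, 40 and 30 after I/R. Whether these reads came from the rows themselves or from the members they resemble was not tested.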

How the results depend on the processing

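The count of members called higher was 33, and 0 were lower in each setting. It was 23 to 41 over the settings with the 1.2-fold limit, and 17 with a fold over 1.5, which is stricter. Leaving out 1 library gave 26 (without sham 3) to 35 (without I/R 1) members and 20 to 26 pathway genes. Over all genes, 7688 were called with all 6 libraries. Without sham 1, 2 or 3 the number was 5467, 5177 or 5364, and without I/R 1, 2 or 3 it was 8124, 6489 or 7585. Calls over all genes thus fell without each library except I/R 1. Why a given member lost its call was not tested. The replicate number as a block, with numbers that do not pair the libraries, gave 30 members; the calls of Psmd2, Psmg1 and Psmc3 were lost. Of the 33, 23 kept their call in every setting with the 1.2-fold limit. The median of the members was 0.51, and moved to 0.79 with library size only, 0.76 on log2 of FPKM plus 1 and 0.79 on FPKM plus 0.1 (no TMM factor), 0.55 with filterByExpr and 0.58 with 10 reads in every library (46 members tested). The pathway genes called, 26 (21 higher, 5 lower), were 14 (13 and 1) with a fold over 1.5; lower calls were 1 with library size only and on either FPKM scale, and 3 when leaving out I/R 3 and sham 1. Higher calls made up 51.4% of all calls with TMM and 76.8% with library size only.

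Signs turned for members near 0, none of them called. With library size only, FPKM plus 1 and FPKM plus 0.1, the log2 fold changes were 0.15, 0.15 and 0.15 for Psmb5, 0.25, 0.23 and 0.24 for Psmg2, 0.21, 0.20 and 0.20 for Psmd5, and 0.26, 0.24 and 0.26 for Psmd10. With filterByExpr Psmd10 was at 0.0018, and with 10 reads in every library Psmd10 was at 0.0294 and Psmg2 at 0.0206. Leaving out 1 library gave ranges of -0.0511 (without I/R 3) to 0.0906 for Psmc3ip, -0.126 to 0.0617 (without I/R 1) for Psmg2, -0.176 to 0.0572 (without I/R 1) for Psmd5 and -0.0786 to 0.0125 (without sham 1) for Psmd10. Leaving out I/R 3 and sham 1 gave -0.0756 for Psmc3ip and 0.0256 for Psmd10. Library size only and both FPKM scales use no TMM factor. The median of the members there was 0.76 to 0.79, beside 0.51 with TMM. For the turns in the other fits the cause was not tested. Depth limits Psma8 and Psmb11 most, with 4 to 60 counts in a library.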
